A study of Drosophila melanogaster with 40 samples.

Results

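Gene expression was compared between exercised males that express the R820W allele of feline MYBPC3 in the heart and exercised males of the attP2 control line. The comparison was defined by the sample labels and comprised 4 of the 40 libraries of the series, 2 of R820W and 2 of attP2. Each library was made from whole bodies of a pool of 10 males that were 1 week old and had just been shaken for 1 h, with alternating pulses and rests. R820W males had the genotype UAS-R820W-MYBPC3/TinCΔ4-Gal4 on the third chromosome, with the transgene integrated at the attP2 site and marked by a wild-type copy of white. attP2 males carried attP2/TinCΔ4-Gal4, which is the same heart driver over the empty landing site. The genotypes of all 4 pools were further noted with w and y, w on the X chromosome and Chr2/+ on the second. The exercised males of the series further included 2 libraries of the A31P line and 2 of the line with unmutated (WT) MYBPC3. These were used for the gene filter, the scaling of libraries and the estimate of the spread, and for the comparisons given last. The replicates were separate pools of flies of 1 line, and p-values therefore measure the spread between such pools.

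Cardiac myosin binding protein C, the product of MYBPC3, binds the thick filaments of heart muscle and modulates contraction, and its mutations are a known cause of hypertrophic cardiomyopathy in cats and humans. In the R820W line the transgene adds a feline form of this protein to the fly heart. Because the driver is active in the heart and the RNA came from whole flies, the comparison reports on all tissues, among them the fat body, which stores lipid in droplets and has functions of liver and adipose tissue. In RNA from whole bodies, fewer cells of a type and less RNA per cell cannot be told apart.

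The 4 libraries held 20705772 to 21661809 counts in R820W and 19169444 to 26815187 in attP2. The table has no row for feline MYBPC3, so the transgene itself was not measured. The w gene, whose functional copy marks the transgene, had 14.4 and 13.8 CPM (counts scaled to the library total) in R820W males and 9.65 and 9.85 CPM in attP2 males, a log2 fold change (log2FC) of 0.60 that did not pass the test (adjusted p = 0.055, edgeR). The gene tin, which specifies the heart, had too few reads to be tested, with 0.09 and 0 CPM in R820W and 0.10 and 0.15 CPM in attP2. None of 25 tested genes of a list of heart regulators and matrix passed the edgeR test in either direction. An unadjusted p under 0.05 was found for 5 of them, beside 2736 of all 13912 genes tested. Ribosomal RNA made up 6.75% and 8.13% of the counts in R820W and 4.98% and 4.85% in attP2. Summed over 28 genes of yolk, eggshell and the female germline, R820W replicate 2 had 582 CPM, whereas R820W replicate 1 had 28.5 CPM and attP2 had 28.2 and 32.7 CPM. This is 4.52% of the level of exercised females in R820W replicate 2, 0.221% in R820W replicate 1, and 0.219% and 0.254% in attP2. The same sum reached 52.1% in A31P replicate 2. This library belongs to neither compared group and enters through the gene filter, the scaling of libraries and the spread. Over all genes tested, the median log2FC of R820W over attP2 was 0.037 with it in the fit and -0.002 without it. Taken as the median over the same genes instead of the sum, the level was 7.70% of that of exercised females in R820W replicate 2 and 103% in A31P replicate 2.

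**Figure D1:**
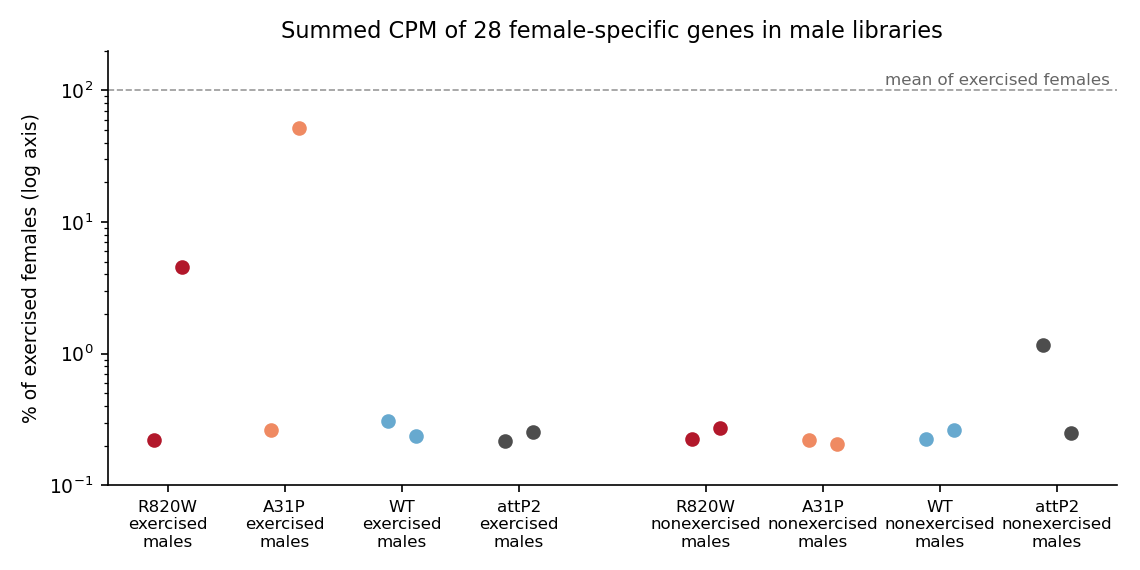
Female-specific RNA in the 8 exercised and 8 nonexercised male libraries. The log axis gives the summed CPM of 28 genes of yolk, eggshell and female germline as a percent of the sum in exercised females, with 1 point per library. Among exercised males, R820W replicate 2 lies at 4.52% and A31P replicate 2 at 52.1%, while the others lie between 0.219% and 0.306%. Among nonexercised males, attP2 replicate 1 lies at 1.16% and the others between 0.205% and 0.271%.

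Of 13912 genes tested, 117 (0.841%) were called in R820W against attP2, at an adjusted p under 0.05 and an absolute log2FC over 0.5 in the quasi-likelihood test of edgeR. Of these, 45 (0.323%) rose and 72 (0.518%) fell in R820W. The median log2FC was 1.30 over the genes that rose and -1.15 over those that fell, against 0.04 over all genes tested, and 65 of the 117 changed by more than 1 and 29 by more than 2 on the log2 scale. DESeq2 called 342 genes (2.46%), 130 (0.934%) higher and 212 (1.52%) lower, with 113 of the 117 among them. In all 117, both R820W libraries lay beyond both attP2 libraries, which holds for 24.2% of all tested genes on the higher side and 34.1% on the lower side. The 117 were selected from these same libraries, so their separation adds no support to the calls. With A31P replicate 2 left out of the fit, 483 genes (3.43%) were called, 202 (1.43%) higher and 281 (1.99%) lower, and they included 116 of the 117. The count fell to 4 without R820W replicate 2, to 0 without attP2 replicate 1 (1463 genes at an unadjusted p under 0.05) and to 4 without attP2 replicate 2, while with both R820W replicate 2 and A31P replicate 2 left out it was 492, with 115 of the 117 among them.

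**Figure D2:**
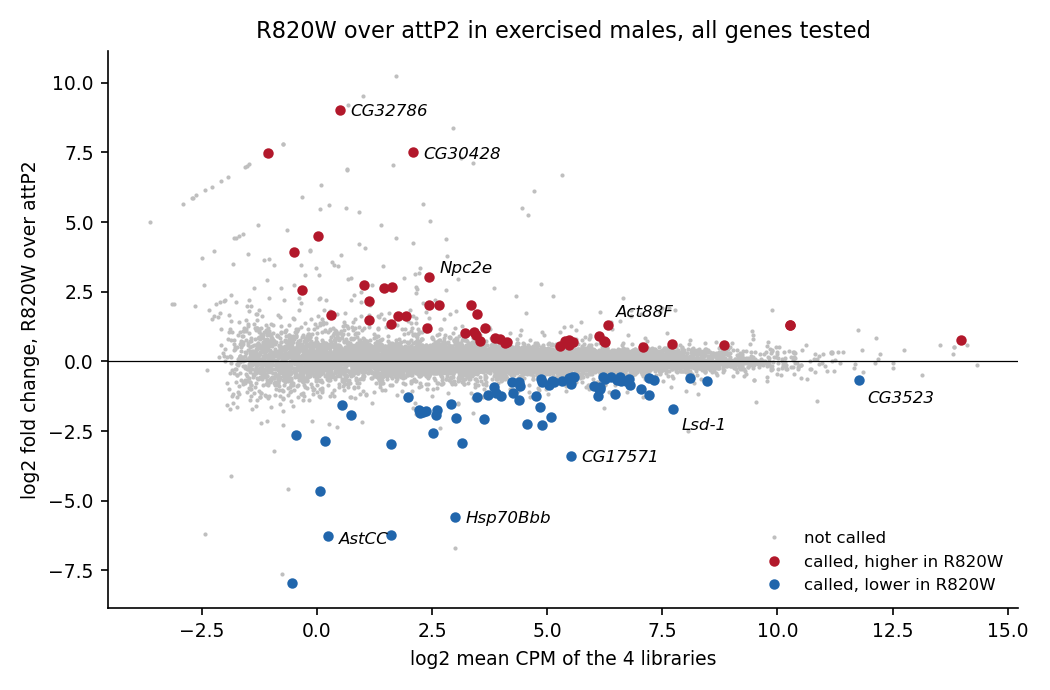
Expression level and difference of each tested gene. The horizontal axis is the log2 of the mean CPM over the 2 R820W and 2 attP2 exercised male libraries and the vertical axis the fitted log2FC of R820W over attP2, with 1 tested gene that has no count in these libraries left out. The 45 called genes that rose and the 72 that fell are coloured, and the 5 called genes of fat storage and synthesis lie among those that fell.

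Of 15 tested genes of fat storage and fat synthesis, 5 fell in exercised R820W males and none rose, beside 0.518% of all genes that fell, and the list had a median log2FC of -0.41. Lsd-1, the fly perilipin that coats lipid droplets and gates access of lipases, had 109 and 82.5 CPM in R820W males and 341 and 321 CPM in attP2 males. It was 3.29-fold lower in R820W (log2FC = -1.72 ± 0.18 (SE, n = 2 each), adjusted p = 0.0122, edgeR), and the log2FC was -1.53 without R820W replicate 2. Lip4, a lipase, had 42.6 and 37.3 CPM in R820W and 108 and 89.6 CPM in attP2, a 2.35-fold lower level (log2FC = -1.23 ± 0.12 (SE), adjusted p = 0.0117, edgeR). Both genes showed a gap between the groups that was wider than the spread within either of them.

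The remaining members that fell were mdy, Lsd-2 and CG3523. The mdy gene encodes a diacylglycerol acyltransferase, which makes triglyceride, and had 33.7 and 30.7 CPM in R820W and 60.8 and 58.8 CPM in attP2 (log2FC = -0.82 ± 0.09 (SE)). Lsd-2, the second perilipin, had 215 and 205 CPM in R820W and 348 and 325 CPM in attP2 (log2FC = -0.61 ± 0.08 (SE)). CG3523, the fatty acid synthase FASN1, was the most abundant of the 5, with 2782 and 2473 CPM in R820W and 4316 and 4404 CPM in attP2 (log2FC = -0.66 ± 0.08 (SE)). The lipase gene bmm, the counterpart of mammalian ATGL, had a log2FC of -0.41 and ATPCL, which supplies acetyl-CoA for fat synthesis, one of -0.46, and neither passed the test. ACC and Desat1, which also act in fatty acid synthesis, had log2FC of -0.16 and -0.11 and were not called either. Outside the list, and chosen after their values were seen, Jabba, a protein of lipid droplets, and sug, a transcription factor known from the response to dietary sugar, also fell. Jabba had 92.7 and 79.8 CPM in R820W and 210 and 211 CPM in attP2 (log2FC = -1.22 ± 0.18 (SE)), and sug had 13.1 and 9.42 CPM in R820W and 30.3 and 31.1 CPM in attP2 (log2FC = -1.38 ± 0.18 (SE)).

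**Figure D3:**
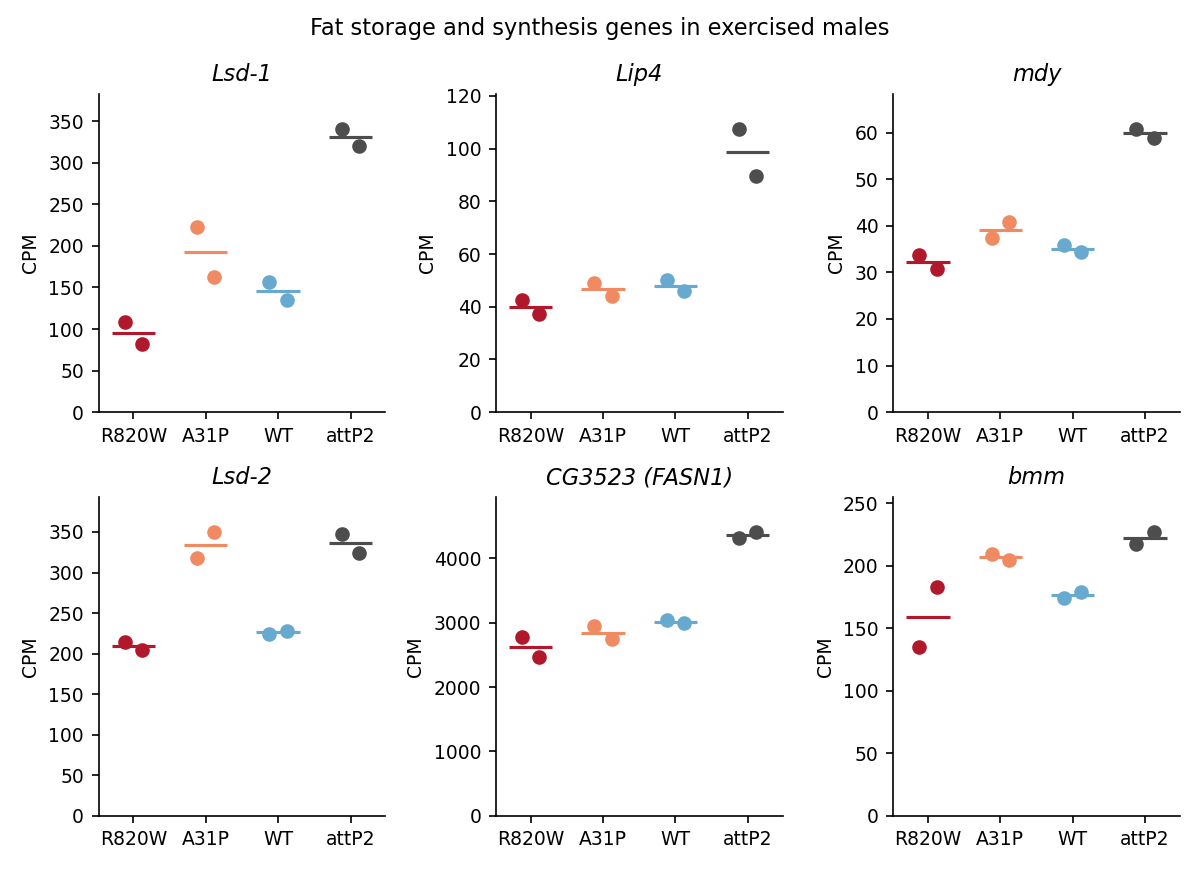
Genes of fat storage and synthesis in exercised males. Each panel gives the CPM of 1 gene in the 2 libraries of R820W, A31P, WT and attP2, with points for libraries and lines for their means. Both R820W libraries lie below both attP2 libraries in all 6 panels. Lsd-1, Lip4, mdy, Lsd-2 and CG3523 were called in R820W against attP2, while bmm was not.

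Among hormones and metabolic signals, genes moved in both directions. Ilp6, an insulin-like peptide made by the fat body, had 9.65 and 9.76 CPM in R820W and 18.3 and 19.8 CPM in attP2 (log2FC = -0.90 ± 0.13 (SE), adjusted p = 0.0276, edgeR). The gene tobi, an α-glucosidase whose expression is known to respond to insulin and adipokinetic hormone, had 516 and 572 CPM in R820W and 342 and 412 CPM in attP2 (log2FC = 0.60 ± 0.10 (SE), adjusted p = 0.0484, edgeR). These were the called genes among 16 tested genes of insulin, foxo and Akh signalling, beside 0.841% of all genes. Ilp2, InR, foxo and Akh were not called (log2FC of -0.34, 0.24, 0.03 and -0.06). AstCC, a neuropeptide of the allatostatin C type, had 0.0462 and 0 CPM in R820W and 2.50 and 2.20 CPM in attP2. The R820W libraries held a single AstCC read between them, and the pooled ratio was 98.6 in favour of attP2, with an exact 95% interval of 17.3 to 3930 for counting error alone. CNMa, which encodes another neuropeptide, had 0.369 and 0.145 CPM in R820W and 2.35 and 1.68 CPM in attP2 (log2FC = -2.85 ± 0.43 (SE), adjusted p = 0.0359, edgeR).

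Of 43 tested gut proteases, 3 fell and none rose, beside 0.518% of all genes that fell, with a median log2FC of -0.27. CG17571, a trypsin-like serine protease, had 4.29 and 10.9 CPM in R820W and 84.8 and 82.4 CPM in attP2, and was 10.5-fold lower (log2FC = -3.40 ± 0.38 (SE), adjusted p = 0.0141, edgeR). CG13283, now named Nepl9, and Jon65Aii, one of the Jonah proteases of the midgut, fell by 0.76 and 0.63 on the log2 scale. Whether the CG13283 reads came from the gut was not tested. The protease gene CG18180 went in the other direction without passing the test (log2FC = 0.75, adjusted p = 0.0517, edgeR). Without A31P replicate 2 in the fit, 9 gut proteases were lower, beside 1.99% of all genes, and 2 higher, beside 1.43%.

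The list of hemocyte and scavenger receptor genes had 16 tested members, of which 3 fell and none rose, beside 0.518% of all genes that fell, and its median log2FC of 0.02 was close to that of all genes. Sr-CI, a scavenger receptor of macrophage-like hemocytes, had 9.69 and 8.55 CPM in R820W and 22.7 and 23.0 CPM in attP2 (log2FC = -1.25 ± 0.13 (SE)). The phagocytosis receptor eater had 9.14 and 6.18 CPM in R820W and 18.3 and 19.2 CPM in attP2 (log2FC = -1.22 ± 0.20 (SE)). The CD36 relative crq, which takes up dying cells, had 71.3 and 71.4 CPM in R820W and 120 and 125 CPM in attP2 (log2FC = -0.71 ± 0.06 (SE)). NimC1, another hemocyte receptor, had 10.2 and 5.84 CPM in R820W and 3.03 and 2.65 CPM in attP2, which is the opposite direction and did not pass the test (log2FC = 1.57, adjusted p = 0.0566, edgeR). Without A31P replicate 2 in the fit, 4 of the list were lower, beside 1.99% of all genes, and 3 higher, beside 1.43%.

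Of 18 tested genes of eye pigment and phototransduction, 2 fell and none rose, beside 0.518% of all genes that fell, and the median log2FC was -0.28. The channel gene trpl, whose product carries part of the light response, had 263 and 259 CPM in R820W and 427 and 471 CPM in attP2 (log2FC = -0.71 ± 0.08 (SE), adjusted p = 0.0122, edgeR). Rh6, the rhodopsin of a class of inner photoreceptors, had 38.4 and 36.9 CPM in R820W and 58.2 and 58.0 CPM in attP2 (log2FC = -0.56 ± 0.08 (SE), adjusted p = 0.0334, edgeR). Rh5 passed the adjusted p but not the size threshold (log2FC = -0.50, adjusted p = 0.0276, edgeR), and ninaE, the main rhodopsin, had a log2FC of -0.37 and was not called. rdhB, a retinol dehydrogenase of the eye that stood outside the list and was chosen after its values were seen, had 9.65 and 8.07 CPM in R820W and 21.1 and 20.1 CPM in attP2 (log2FC = -1.14 ± 0.15 (SE)).

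Among 37 sarcomere genes, Act88F, the actin of the indirect flight muscle, rose and none fell, beside 0.323% of all genes that rose. Act88F had 128 and 96.1 CPM in R820W and 41.3 and 54.0 CPM in attP2 (log2FC = 1.30 ± 0.20 (SE), adjusted p = 0.0383, edgeR). The flight muscle genes fln and TpnC4 had log2FC of 1.12 and 0.96, and Mhc, the myosin heavy chain, one of 0.40, and none of these passed the test. The list had a median log2FC of 0.25, and without A31P replicate 2 in the fit 5 of its genes were higher, beside 1.43% of all genes, and none lower. The genes of the mitochondrial genome had a median of 0.56 over 15 tested genes. None of them was called by edgeR with all 8 libraries, with 9 at an unadjusted p under 0.05, beside 2736 of all 13912 genes. In the fit without A31P replicate 2, 5 of them were higher, beside 1.43% of all genes.

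Several genes had few or no reads in the exercised males of 1 of the 2 lines. CG30428 had 9.28 and 7.58 CPM in R820W and 0 and 0.0746 CPM in attP2, a pooled ratio of 194 with an exact 95% counting interval of 53.4 to 1610. Its neighbour CG30429 had 15.7 and 16.8 CPM in R820W and 4.02 and 4.40 CPM in attP2 (log2FC = 2.02 ± 0.20 (SE), adjusted p = 0.0117, edgeR). The genes lie on chromosome arm 2R at 25251927 to 25254535 and 25246467 to 25247584, in release 6 of the genome, and both overlap CG9380 on the other strand. CG32786, an X-linked gene now named Gem4b, had 2.22 and 3.43 CPM in R820W and 0 in both attP2 libraries, which is at least 21.0-fold higher in R820W against a floor of 3 counts per library. It had reads in other attP2 libraries, with 3.96 and 0.879 CPM in nonexercised R820W males and 1.41 and 3.95 CPM in nonexercised attP2 males, and 6.26 and 10.4 CPM in exercised R820W females and 8.01 and 8.71 CPM in exercised attP2 females. Gem4b has closely related copies beside it, so that its reads may be shared among them. The long noncoding RNA CR44750 was at 0 in both R820W libraries and at 1.41 and 1.34 CPM in attP2, at least 9.71-fold lower in R820W. Likewise, CR31700 was at 0 in attP2 and at 0.646 and 1.26 CPM in R820W, at least 7.09-fold higher.

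Some genes with intermediate levels had large differences as well. Npc2e, a member of the family of sterol-binding proteins that includes Niemann-Pick C2, had 6.74 and 12.4 CPM in R820W and 1.15 and 1.31 CPM in attP2 (log2FC = 3.02 ± 0.41 (SE), adjusted p = 0.0251, edgeR). Oatp58Db, an organic anion transporter, had 4.99 and 4.11 CPM in R820W and 20.2 and 20.4 CPM in attP2 (log2FC = -2.08 ± 0.14 (SE), adjusted p = 0.00352, edgeR). CG11034 had 8.77 and 10.6 CPM in R820W and 49.6 and 49.7 CPM in attP2, a 4.88-fold lower level (log2FC = -2.29 ± 0.12 (SE), adjusted p = 0.00162, edgeR). In each of the 3 genes the R820W and attP2 libraries did not overlap, as in all called genes. Ndae1, a sodium-driven anion exchanger chosen after its values were seen, fell by 1.16 on the log2 scale, with 56.5 and 49.6 CPM in R820W and 124 and 126 CPM in attP2. Cyp310a1 was the called gene among 81 tested cytochrome P450 genes, beside 0.841% of all genes, with 11.6 and 12.8 CPM in R820W and 6.47 and 6.34 CPM in attP2 (log2FC = 1.00 ± 0.13 (SE)). Cpr66Cb was the called gene among 29 tested cuticle protein genes, likewise beside 0.841%, with a log2FC of 1.33 ± 0.20 (SE).

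The called genes were unevenly spread over the genome. Chromosome arm 2L held 49 of the 117, which is 41.9% of the calls beside 19.3% of the genes tested. On 2L, 1.83% of the tested genes were called, 21 higher and 28 lower, whereas the arms X, 2R, 3L and 3R had 0.369% to 0.677%. AstCC, CG17571, CG11034, Lip4, mdy, CG3523, Sr-CI, crq, Ndae1 and Cyp310a1 all lie on 2L. Without A31P replicate 2 in the fit, 5.99% of the genes of 2L were called beside 3.43% of all genes. The transgene itself sits on the third chromosome, and whether the second chromosomes of both lines differed was not tested. By type, 90 of the 117 were protein-coding genes, 18 noncoding RNAs and 7 pseudogenes, and 50 overlapped another gene, for which the assignment of reads is uncertain because the strand setting of the counting was not given.

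Heat shock genes differed between copies. Among the 6 Hsp70 copies, which encode the heat-inducible chaperone and are nearly identical in sequence, 1 fell, beside 0.518% of all genes that fell. This copy, Hsp70Bbb, had 0.185 and 0.435 CPM in R820W and 17.0 and 14.6 CPM in attP2 (log2FC = -5.59 ± 0.38 (SE), adjusted p = 0.0117, edgeR). It was at 0 CPM in the A31P and WT libraries of exercised males. Hsp70Bb had a log2FC in the other direction (0.87, adjusted p = 0.111, edgeR), so that the split of reads between copies is uncertain. Summed over the 6 copies, Hsp70 stood at 93.8 and 142 CPM in R820W and 191 and 223 CPM in attP2. Of the sum in attP2 replicate 2, 31.3 CPM came from Hsp70Aa, which had 0.522 CPM in attP2 replicate 1. In nonexercised males the sum was 98.7 and 116 CPM in R820W and 61.4 and 29.7 CPM in attP2, and Hsp70Bb was called higher there (log2FC = 2.16, adjusted p = 0.000209, edgeR). Without A31P replicate 2 in the fit for exercised males, 3 copies were lower, beside 1.99% of all genes, and 1 higher, beside 1.43%. None of 35 tested genes for immune peptides was called by edgeR, with a median log2FC of 0.48. Of these 35, 22 had an unadjusted p under 0.05, beside 2736 of all 13912 genes in the same fit. In the fit without A31P replicate 2, 13 of them were higher, beside 1.43% of all genes, and none lower, beside 1.99%. Their summed level was 3881 and 5743 CPM in R820W and 3101 and 3172 CPM in attP2. AttA, an attacin, had 156 and 411 CPM in R820W and 87.5 and 68.2 CPM in attP2 (log2FC = 1.93, adjusted p = 0.0877, edgeR), the higher value being that of R820W replicate 2, the library with female-specific RNA. The 5 tested Turandot stress genes had a median log2FC of -1.43 with none called by edgeR and 4 at an unadjusted p under 0.05, and their summed level was 2334 and 662 CPM in R820W and 4158 and 4801 CPM in attP2. Of 93 tested small nucleolar RNA genes none was called by edgeR, with a median log2FC of 0.38. An unadjusted p under 0.05 was found for 30 of them, beside the same 2736 of 13912 genes. Leaving A31P replicate 2 out of the fit gave 13 that were higher, beside 1.43% of all genes. In nonexercised males the medians lay on the other side, at -0.78 over 31 tested immune peptide genes and -0.24 over 102 small nucleolar RNA genes. None was called there by edgeR in either list. An unadjusted p under 0.05 was found there for 15 and 9 genes of these lists, beside 1866 of all 13706 genes. The immune peptides summed to 1496 and 1213 CPM in nonexercised R820W and 3243 and 1041 CPM in nonexercised attP2, so that a single attP2 library stood above the others.

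The called genes were checked against the female-specific signal in R820W replicate 2. None of the 26 tested genes of yolk and eggshell was called, although their median log2FC was 4.79, and the median of 25 maternal and female germline genes was 1.53, again with none called. The yolk and eggshell genes summed to 14.1 and 513 CPM in R820W, 12 and 13 CPM in attP2, and 17.5 and 6624 CPM in A31P. With replicates so far apart within R820W and A31P, these genes could hardly be called. That none was called therefore says nothing about the other genes. If 4.52% of R820W replicate 2 were RNA of exercised R820W females, female RNA would account for a median of 1.20% of the CPM of the called genes in that library. The share was over 10% for 6 of the 117 and over 25% for 3, which were Jabba (42.4%), 5.8SrRNA:CR40454 (77.6%) and 5.8SrRNA-Psi:CR45854 (76.6%). At a share of 7.70%, the median was 2.05%, with 18 genes over 10% and 3 over 25%. Jabba had a log2FC of -1.22, and of -1.11 without this library, while 5.8SrRNA:CR40454 and 5.8SrRNA-Psi:CR45854 had 1.31 each, and 1.53 and 1.52 without it. The part of female RNA in these differences was not tested. All 117 genes kept their direction without R820W replicate 2, with 114 of them within 1.5-fold of the main difference. In each of the 117, both R820W libraries lay beyond both attP2 libraries, so leaving out 1 of them could hardly change a direction. The kept direction therefore says nothing about the part of female RNA. Over the genes of the male tract, the summed level in the testis list was 4319 and 4485 CPM in R820W and 3574 and 3845 CPM in attP2, and in the accessory gland list 11639 and 9041 CPM in R820W and 12062 and 11916 CPM in attP2, with no gene of either list called.

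The genes that rose included many that females hardly express. Of these 45 genes, 25 (55.6%) had at least 10-fold higher mean CPM in the 8 nonexercised male libraries than in adult females, against 9 of the 72 genes that fell (12.5%) and 21.6% of all tested genes, a description with a threshold chosen after the values were seen. Ran-like, a relative of the nuclear transport GTPase Ran, had 51.8 and 58.1 CPM in R820W males and 34.8 and 33.2 CPM in attP2 males (log2FC = 0.76 ± 0.10 (SE)). The proteasome subunit gene Prosbeta5R2 had 13.6 and 15.3 CPM in R820W and 9.55 and 8.50 CPM in attP2 (log2FC = 0.75 ± 0.12 (SE)). The gene ms(2)34Fe, named for a male-sterile mutation, had 91.5 and 92.5 CPM in R820W and 60.7 and 59.7 CPM in attP2 (log2FC = 0.68 ± 0.11 (SE)). In each of these genes, picked as examples after their values were seen, both R820W libraries were higher than both attP2 libraries. The summed testis genes given above were also higher in both R820W libraries, and their part in these differences was not tested.

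The same lines were sequenced as nonexercised males, in libraries that the comparison above did not use. There, 93 of 13706 genes (0.679%) were called in R820W against attP2, 27 higher and 66 lower. Both comparisons called 39 genes, all in the same direction, which is 33.3% of the exercised and 41.9% of the nonexercised calls, and 22 of the 39 lie on 2L. Of the 45 genes that rose in exercised males, 43 were also on the higher side in nonexercised males, beside 53.1% of all genes tested there. In 36 of the 45 the libraries did not overlap, beside 33.4% of all genes, and the median log2FC was 0.79. Of the 72 that fell, 71 were tested, 69 were on the lower side and 51 had libraries that did not overlap, beside 8.42% of all genes, with a median of -0.57. CG30428 had 10.8 and 11.5 CPM in nonexercised R820W and 0.0940 and 0 CPM in nonexercised attP2. CG17571 had 0.746 and 2.68 CPM in nonexercised R820W and 44.6 and 41.0 CPM in nonexercised attP2 (log2FC = -4.74). Among the genes of fat storage, mdy was called in nonexercised males as well, with 39.7 and 41.6 CPM in R820W and 58.4 and 60.8 CPM in attP2 (log2FC = -0.65, adjusted p = 0.0198, edgeR). Lsd-1 was not, with 100 and 147 CPM in nonexercised R820W and 165 and 157 CPM in nonexercised attP2 (log2FC = -0.49, adjusted p = 0.190, edgeR). The number of calls in nonexercised males was 17 without R820W replicate 1 and 995 without attP2 replicate 2, the libraries that moved it most. The attP2 library that remained in the last fit, replicate 1, had 149 CPM over the 28 female-specific genes, 1.16% of the level of exercised females, whereas nonexercised R820W had 28.8 and 34.8 CPM and attP2 replicate 2 had 32.2 CPM. Its testis genes summed to 2617 CPM, against 3639 and 3737 CPM in nonexercised R820W and 3312 CPM in attP2 replicate 2, and the part of these differences in the calls was not tested.

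The difference between both differences was tested as an interaction over the 16 male libraries. It was called for 1 of 14090 genes (0.00710%), MtnB, and 776 genes had an unadjusted p under 0.05. MtnB, a metallothionein, had 2.17 and 1.74 CPM in exercised R820W and 5.74 and 7.35 CPM in exercised attP2, against 7.74 and 6.53 CPM in nonexercised R820W and 2.30 and 1.57 CPM in nonexercised attP2. None of the 117 called genes passed the interaction test, 47 of them having an unadjusted p under 0.05. They were selected by their difference in exercised males, which enters the interaction, so the 47 cannot be set against the share of all genes. DESeq2 called 45 genes in all. Without any 1 library, edgeR called 0 to 44 genes, the highest count coming without nonexercised attP2 replicate 2 and a count of 16 without exercised R820W replicate 1. For Lsd-1 the interaction was -1.27 on the log2 scale (adjusted p = 0.234, edgeR), so that the larger difference in exercised males was not established. Exercised and nonexercised males were sequenced on different flow cells, and exercise and flow cell cannot be told apart.

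**Figure D4:**
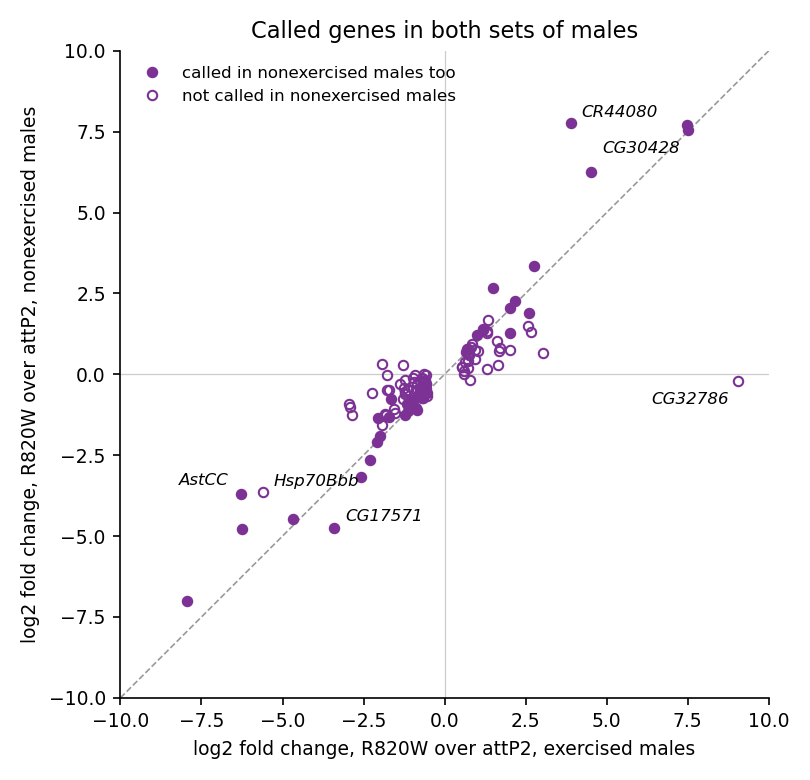
The called genes in exercised and in nonexercised males. Each point is a gene called in exercised males, with its log2FC of R820W over attP2 in exercised males on the horizontal and in nonexercised males on the vertical axis. Filled points were called in both sets and the dashed line marks equal values. Of 116 genes tested in both sets, 112 have the same sign, and CG32786 is among the 4 that do not. Over all genes tested in nonexercised males, 53.1% lie on the higher side.

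In the other stages and sex, the direction was shared by part of the genes. In larvae, 23 of 40 detected genes of the higher group had R820W libraries that lay above those of attP2, beside 6.72% of all genes, and 26 of 59 of the lower group lay below, beside 22.9%. In exercised females, 42 of 62 detected genes of the lower group lay below attP2, beside 16.7% of all genes, whereas 8 of 21 of the higher group lay above, beside 31%. In nonexercised females the counts were 26 of 62, beside 22.5%, and 8 of 21, beside 20.0%, and 13 of the 62 genes of the lower group lay above attP2 there, beside the same 20.0%.

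The lines with WT and A31P MYBPC3 asked whether a difference from attP2 went with the R820W allele. These lines were compared with the same 2 attP2 libraries, so the values are given side by side. The 45 genes that rose in R820W had a median log2FC of 0.87 in WT and 0.73 in A31P against attP2, and the 72 that fell had medians of -0.85 in WT and -0.81 in A31P. Lsd-1 had 109 and 82.5 CPM in R820W, beside 222 and 163 in A31P, 157 and 136 in WT, and 341 and 321 in attP2. The A31P values include replicate 2, the library with female-specific RNA at 52.1% of the female level. Lsd-1 in females stood at 0.461 of its level in nonexercised males. The part of female RNA in the A31P values and medians was not tested. Tested directly, R820W differed from WT in 9 of 13912 genes (0.0647%), 6 (0.0431%) higher and 3 (0.0216%) lower, with 691 genes at an unadjusted p under 0.05. It differed from A31P in 12 genes (0.0863%), 7 (0.0503%) higher and 5 (0.0359%) lower, with 1350 genes at an unadjusted p under 0.05. The counts against WT were 25 without A31P replicate 2 in the fit and 0 without any 1 of the 4 libraries compared (317 to 784 genes at an unadjusted p under 0.05). Those against A31P were 26 without A31P replicate 2, 1414 without A31P replicate 1, which leaves A31P replicate 2 alone, and 0 without R820W replicate 1 (993 genes at an unadjusted p under 0.05).

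Of the 117 genes called against attP2, 3 were also called against WT and 2 against A31P. CG30428, CG30429 and Oatp58Db were called against WT, with log2FC of 10.62, 1.87 and -2.14, and were not called against A31P. CG30428 was at 9.28 and 7.58 CPM in R820W, 10.1 and 8.77 in A31P, and 0 in both WT libraries. Oatp58Db was at 4.99 and 4.11 CPM in R820W, 4.56 and 4.69 in A31P, and 22.3 and 20.0 in WT. CR32010 and CG5958 were lower in R820W than in A31P, with log2FC of -2.16 ± 0.22 (SE) and -0.80 ± 0.09 (SE). CR32010 had 0.692 and 0.628 CPM in R820W, 3.07 and 3.27 in A31P, 2.75 and 2.23 in WT, and 5.32 and 5.48 in attP2, so that R820W was the lowest of the 4 lines.

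A cluster of cytochrome P450 genes on 2R differed between R820W and the other transgenic lines and was not called against attP2. Cyp6a enzymes oxidize foreign compounds and several are known from insecticide resistance. Cyp6a23 had 87.0 and 82.1 CPM in R820W, 44.8 and 39.3 in A31P, 43.7 and 45.2 in WT, and 94.7 and 110 in attP2. It was 1.00 ± 0.10 (SE) higher than in WT and 1.10 ± 0.10 (SE) higher than in A31P on the log2 scale, and was not called against attP2 (log2FC = -0.21). Cyp6a8 and Cyp6a20 behaved alike, with log2FC of 1.41 and 1.31 over WT and 1.32 and 1.33 over A31P. Their neighbour Cyp6a17, at 14873953 to 14875739 beside Cyp6a23 at 14875829 to 14877654, went the other way, with 42.9 and 36.8 CPM in R820W, 88.7 and 81.3 in A31P, 85.4 and 90.3 in WT, and 48.5 and 46.1 in attP2. These genes are close relatives in tandem, and reads may have been divided between them. Elsewhere, Cyp4p2 had a log2FC of 2.49 and Scp1, a calcium-binding protein of muscle, one of 0.81 over A31P, while Cyp6a2 had -1.17. CG18180 was 1.21 higher than in WT on the log2 scale, with 176 and 178 CPM in R820W and 70.2 and 91.3 CPM in WT. In all, 5 genes were called both against WT and against A31P, namely the 4 Cyp6a genes named here and the noncoding RNA CR45271, whose log2FC was -3.97 against WT and -4.09 against A31P.

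**Figure D5:**
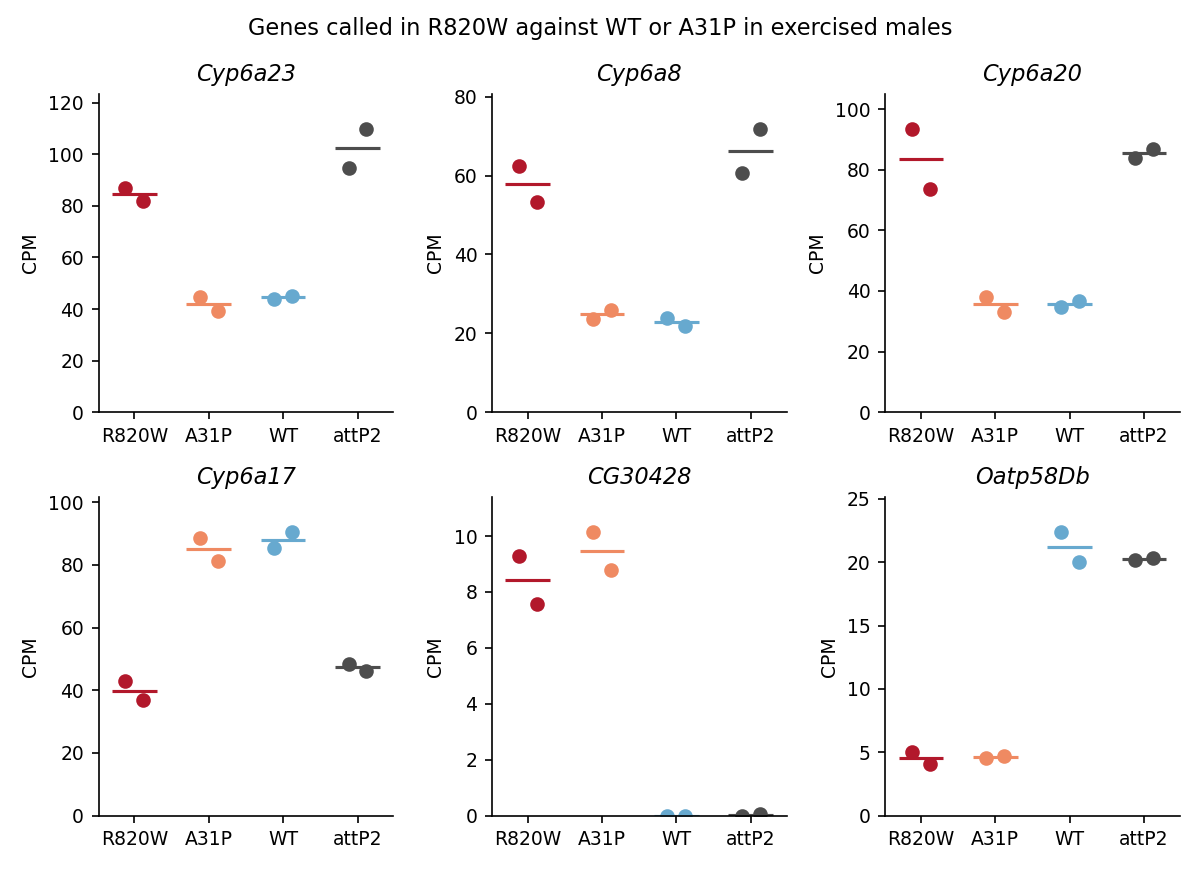
Genes called in R820W against WT or A31P. Each panel gives the CPM of 1 gene in the 2 exercised male libraries of R820W, A31P, WT and attP2, with points for libraries and lines for their means. R820W and attP2 lie close together in the 4 Cyp6a genes, whereas R820W lies with A31P in CG30428 and Oatp58Db.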

How the data were processed

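RNA of whole flies was depleted of ribosomal RNA and sequenced from directional libraries. According to the submitters' notes and the study's methods, the authors used bcl2fastq, FastQC and Cutadapt on the raw reads, filtered ribosomal reads by TopHat and counted the rest per gene in CLC Genomics Workbench. The deposited values used here are these whole-number counts of reads on 17490 genes, without normalization. Columns of normalized values in the same table stayed out. The strand setting and the treatment of reads with several hits are not given in the sources used here. Gene names and positions are those of the table, and 17216 identifiers were matched to a current annotation, which gave gene types and overlaps.

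The package edgeR (4.0.16, under R 4.3.3) fitted the 8 exercised male libraries of 4 genotypes together after TMM scaling. Genes passed filterByExpr at a count of 10 and a total of 15. Contrasts were tested with the quasi-likelihood method, two-sided, with Benjamini-Hochberg adjustment over all genes tested. A gene was called at an adjusted p under 0.05 and an absolute log2FC over 0.5. The 8 nonexercised male libraries were fitted likewise, and the 16 male libraries served for the interaction. CPM are counts over the library total, and SE is the absolute log2FC over the square root of F. A single gene compared between 2 and 2 libraries by exact permutation cannot go below p = 0.333, and no such test was used. Libraries of females and larvae were compared by whether both R820W libraries lay beyond both attP2 libraries. Where every library of a group was at 0, a floor of 3 counts per library gave a bound, and intervals are exact at 95% and cover counting error only. A floor of 3 counts is 0.138 and 0.145 CPM in R820W and 0.157 and 0.112 CPM in attP2. The scripts were tested on simulated data. Tables and figures were made in Python 3.11.15 (numpy 2.4.6, pandas 2.3.3, matplotlib 3.10.9).

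Genes named in the text come from the 15 called genes highest and the 15 lowest in log2FC, called genes of a list, genes called against WT or A31P, genes called in both sets of males, interaction calls, w and the Hsp70 copies. List members that were not called, and genes said to be so, were chosen after their values were seen. The comparison, the lists and the rule were chosen with earlier results of these data known. Lists of glycolysis, circadian clock, chaperone, oxidative stress, glutathione S-transferase, UDP-glycosyltransferase, odorant-binding, osiris, dosage compensation, immediate early and immune recognition genes had no called gene with all 8 libraries in the fit. Without A31P replicate 2, 2 of 12 clock, 2 of 17 heat-inducible chaperone and 4 of 40 odorant-binding genes were lower, beside 1.99% of all genes. In that fit 2 of 20 immune recognition genes and 1 of 15 glycolysis genes were higher, beside 1.43%. The alternatives were DESeq2 1.42.0 without independent filtering, the likelihood ratio test, RLE size factors, library sizes without ribosomal, 7SL and mitochondrial RNA, no filter, a replicate block, the compared groups alone, and leaving out libraries or genes with at least 4 times higher levels in females.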

Additional observations from a re-analysis of the deposited data

Results flagged for a closer look

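MtnB was singled out because the difference between R820W and attP2 differed between exercised and nonexercised males. In exercised males it had 2.17 and 1.74 CPM in R820W and 5.74 and 7.35 CPM in attP2, with a log2FC of -1.67 that was not called (adjusted p = 0.0701, edgeR). In nonexercised males it had 7.74 and 6.53 CPM in R820W and 2.30 and 1.57 CPM in attP2 (log2FC = 1.78, adjusted p = 0.00889, edgeR). The difference between both differences was -3.50 on the log2 scale (adjusted p = 0.0460, edgeR), with both R820W libraries below both attP2 libraries in exercised males and above both in nonexercised males. With 1 of the 8 libraries of R820W and attP2 left out, the difference stayed between -3.75 and -3.23 and was called in 3 of 8 fits, with an adjusted p of 0.0174 to 0.183 (edgeR). It was not called without exercised R820W replicate 2, either exercised attP2 library, nonexercised R820W replicate 1 or nonexercised attP2 replicate 1. MtnB was 1 of 14090 genes tested, exercise and flow cell cannot be told apart, and the part of either was not tested.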

How the results depend on the processing

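Of the 117 calls in exercised males, 113 were also made by DESeq2 and 113 without female-biased genes, which removed the other 4. The counts for R820W against attP2 in exercised males were 342 by DESeq2, 356 by the likelihood ratio test, 483 without A31P replicate 2 in the fit, 492 without both female-positive libraries and 412 without female-biased genes, and leaving out 1 of the 4 libraries gave 0 to 159. RLE size factors gave 43 higher and 94 lower. For R820W against WT, DESeq2 and the likelihood ratio test each gave 54, the compared groups alone 18, the fit without A31P replicate 2 gave 25, and each fit with 1 of the 4 libraries left out 0. For R820W against A31P the counts were 173 by DESeq2, 169 by the likelihood ratio test, 0 for the compared groups alone (621 at an unadjusted p under 0.05), and 0 to 1414 with 1 library left out. For nonexercised males they were 209 by DESeq2, 288 by the likelihood ratio test, 145 without the filter, 31 for the compared groups alone, and 17 to 995 with 1 library left out. For the interaction they were 45 by DESeq2, 52 by the likelihood ratio test, and 0 to 44 with 1 library left out. The causes were not tested.

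In exercised males, all sequenced in 1 lane, the labels tie a replicate number to nothing shared, while in nonexercised males it follows the lane. The replicate differences of R820W and attP2 correlated at 0.01 over genes in exercised males and -0.08 in nonexercised males, and the 0.63 between R820W and A31P joined the 2 libraries with female-specific RNA. With the replicate number as a block, the counts were 130 for R820W against attP2, 7 against WT, 26 against A31P, 86 in nonexercised males and 1 for the interaction.

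No called gene that is named under the rule reversed. As the R820W and attP2 libraries did not overlap in these genes, leaving out a library could hardly reverse them. Uncalled genes reversed for R820W against attP2 in exercised males. With 1 library left out, the log2FC ran from -0.15 to 0.20 for Cyp6a20 and from -0.69 to 0.15 for Hsp70Ba, whose signs reversed without R820W replicate 1. It ran from -0.25 to 0.0016 for Cyp6a8 and from -0.0780 to 0.0199 for Cyp6a9, reversed without attP2 replicate 2, and Cyp6a9 was at 0.0048 without R820W replicate 2. With 2 libraries a group, and 1 of R820W carrying female-specific RNA, a gene that was not called may still differ.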

Other observations

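Beside the genes described, the following genes were called and were chosen after their values were seen. Lsp1gamma, a larval serum protein, rose, with 5.86 and 4.35 CPM in R820W and 1.88 and 1.57 CPM in attP2 (log2FC = 1.64 ± 0.23 (SE)). CG12090, the fly Iml1 of the GATOR1 complex that restrains TORC1, had 46.9 and 45.4 CPM in R820W and 91.8 and 99.6 CPM in attP2 (log2FC = -0.98 ± 0.08 (SE)). Pde6, a phosphodiesterase, had 60.3 and 56.6 CPM in R820W and 84.5 and 96.1 CPM in attP2 (log2FC = -0.56 ± 0.09 (SE)), and Sply, the sphingosine-1-phosphate lyase, 37.1 and 36.1 CPM in R820W and 56.7 and 57.1 CPM in attP2 (log2FC = -0.57 ± 0.07 (SE)). MtnD, a second metallothionein gene, had 6.37 and 6.13 CPM in R820W and 17.4 and 14.6 CPM in attP2, and it lay on the higher side in nonexercised R820W males without passing the test there (log2FC = 0.29).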
